A study of Mus musculus with 7 samples.

Results

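Chemokines are small secreted proteins that attract leukocytes, and 10 of their genes were examined in sorted brain microglia of 5xFAD mice with or without B2m. The 10 were Ccl2, Ccl3, Ccl4, Ccl5, Ccl7, Ccl9, Ccl12, Cxcl2, Cxcl10 and Cxcl14, chosen by symbol as chemokines linked to microglia, of 19505 genes with a probe set on the array. Each had 1 probe set. The first group held 3 arrays of genotype 5xFAD;B2m+/+ and the other 4 arrays of genotype 5xFAD;B2m–/–, both on the C57BL/6 strain, so the mice of both groups carried the 5xFAD transgenes and mice without them were not analysed here. 5xFAD mice form amyloid plaques, and the product of B2m, beta-2-microglobulin, pairs with MHC class I heavy chains and carries them to the cell surface, so that mice without it form few CD8+ T cells. The labels state neither age, sex nor how many animals gave each sample, and do not describe the B2m allele. Cells were sorted as viable, CD45 positive and CD11b positive, a gate that also admits other myeloid cells. Values are log2 expression after RMA, which corrects background, normalizes arrays to each other and summarizes probes. Differences are knockout minus wildtype on that scale.

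Chemokines are named for the spacing of their first cysteines, as CC (Ccl genes) or CXC (Cxcl genes), and act on G protein-coupled receptors of leukocytes. Microglia make many of them when activated, and several are transcribed within minutes to hours of a stimulus through NF-kappa-B, AP-1 and interferon-regulated factors. Ccl3 and Ccl4 are among the genes that microglia raise near amyloid plaques and also after tissue dissociation. In the gene order of the RefSeq table of assembly GRCm38.p6, 7 of the 10 genes lie on chromosome 11 in runs of neighbouring chemokine genes. Ccl2 is next to Ccl7, which is followed by Ccl11 and Ccl12. Ccl5 is followed by Ccl9, Ccl6, Ccl3 and Ccl4. Cxcl2 and Cxcl10 lie on chromosome 5 and Cxcl14 on chromosome 13.

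The labels matched the targeted gene. B2m was 13.42, 13.41 and 13.39 in wildtype samples and 10.40, 10.56, 10.47 and 10.24 in knockout samples, a difference of -2.99 (SE 0.10, limma adjusted p = 1.54e-07). Microglial identity was checked with 14 markers, of which 13 were measured, and all 13 lay above the control level in each of the 7 arrays, with P2ry12 between 12.89 and 13.11. The control level is the value that 95% of an array's 5222 negative control rows stay under, 9.35 to 9.55, and is a rough guide because some of those rows are bright. All 13 measured T and natural killer cell markers and all 4 measured B cell markers lay below it in all arrays. Of the neutrophil markers 6 of 10 lay above it in all arrays, as did 6 of 16 endothelial and mural, 2 of 11 border-associated macrophage, 1 of 9 monocyte, 1 of 8 oligodendrocyte, 1 of 8 neuronal and 0 of 9 astrocyte markers. In bulk samples like these, fewer cells of a type and less RNA per cell cannot be told apart.

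Ccl2, Ccl3 and Ccl4 stood above the control level in all 7 arrays. Cxcl2 did so in 5 arrays and Ccl9 in 2. Ccl5, Ccl7, Ccl12, Cxcl10 and Cxcl14 did so in none, so no fold is given for them or for Ccl9, and differences of such dim probe sets can be understated. Genes entered the test if 3 or more arrays put them above the median of all named genes. By that filter 8 of the 10 chemokines were tested, among 10004 genes in all. Ccl5 exceeded the median in 2 arrays and Cxcl14 in 0, and both are given as values without a test.

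No tested chemokine differed between the genotypes by more than the test could set apart from the spread between arrays. In limma 0 of 8 passed a Benjamini-Hochberg adjusted p under 0.05, higher or lower, where 0.05% of all tested genes passed. Their adjusted p ran from 0.381 to 0.949. At an unadjusted p under 0.05, 2 of 8 (Cxcl2 and Ccl9) were higher in knockout arrays and 0 were lower, against 8.39% and 3.54% of all tested genes. The genotypes overlapped in all 8, while they did not overlap in 10.9% of tested genes. The median difference over the 8 was 0.12, beside -0.0055 over all tested genes, with 6 of 8 above 0, as were 48.6% of all tested genes. Leaving out wildtype replicate 2 gave a median of 0.064, and leaving out wildtype replicate 3 gave 0.20.

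**Figure D1:**
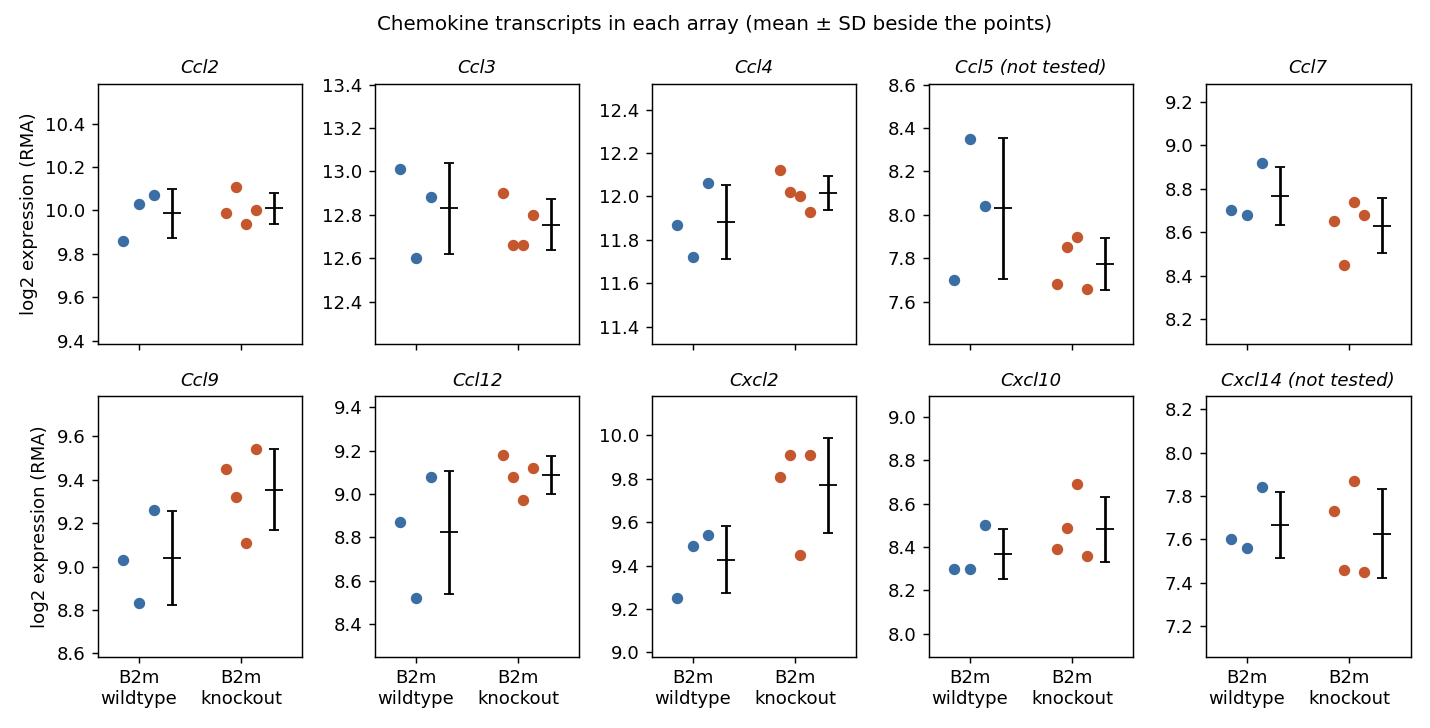
Log2 expression of each chemokine gene (y axis, each panel spanning the same range of log2 units) in the 3 B2m wildtype arrays (blue) and 4 B2m knockout arrays (orange), with the mean ± SD of each group beside its points. The groups overlap in every panel. For Cxcl2 and for Ccl9, 3 knockout arrays lie above all wildtype arrays and knockout replicate 3, at 9.45 and 9.11, lies among them.

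Promoters of 6 of the 10 genes, taken from RefSeq (GRCm38.p6), were searched for a few letter patterns on both strands, from 250 bases before to 50 bases after the start site. The patterns were the TATA box (TATAAA), a kappa B site (GGGA and TTCC with any 2 bases between), an interferon-stimulated response element (GAAA repeated after any 2 bases) and an AP-1 site (TGA and TCA with any base between). The 250 bases before the start are shown for 4 genes, with matches in capitals. Cxcl2 and Ccl9 had the largest differences between genotypes, Ccl12 varied between arrays along with Ccl9, and Cxcl10 is the usual interferon-responsive member.
Cxcl2, chr5:90903649-90903898, + strand: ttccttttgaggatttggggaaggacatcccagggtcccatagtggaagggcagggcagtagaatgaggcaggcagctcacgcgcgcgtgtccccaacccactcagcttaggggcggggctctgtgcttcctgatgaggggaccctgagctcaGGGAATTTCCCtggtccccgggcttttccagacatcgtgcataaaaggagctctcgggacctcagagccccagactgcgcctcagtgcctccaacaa
Cxcl10, chr5:92348890-92349139, - strand: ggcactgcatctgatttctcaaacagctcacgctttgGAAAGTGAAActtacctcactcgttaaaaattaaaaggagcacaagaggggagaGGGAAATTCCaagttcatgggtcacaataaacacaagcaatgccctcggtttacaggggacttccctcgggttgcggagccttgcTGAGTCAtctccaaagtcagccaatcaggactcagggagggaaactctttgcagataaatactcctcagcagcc
Ccl9, chr11:83578637-83578886, - strand: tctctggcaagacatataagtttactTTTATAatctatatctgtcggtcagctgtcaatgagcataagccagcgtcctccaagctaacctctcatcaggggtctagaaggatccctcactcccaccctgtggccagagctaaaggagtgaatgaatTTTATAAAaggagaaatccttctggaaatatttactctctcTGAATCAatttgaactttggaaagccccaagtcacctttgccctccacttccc
Ccl12, chr11:82101595-82101844, + strand: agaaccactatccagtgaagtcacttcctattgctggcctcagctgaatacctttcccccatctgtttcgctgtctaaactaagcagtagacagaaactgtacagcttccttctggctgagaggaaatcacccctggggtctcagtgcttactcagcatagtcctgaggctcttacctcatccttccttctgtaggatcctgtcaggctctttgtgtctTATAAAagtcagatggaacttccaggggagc
Cxcl2 has overlapping kappa B matches on opposite strands that begin 97 and 96 bases before the start. Cxcl10 has the interferon element 213, a kappa B match 159 and an AP-1 match 74 bases before the start. Ccl9 has TATA matches that begin 224, 94 and 92 bases before the start, the last pair overlapping on opposite strands, and an AP-1 match at 53. Ccl12 has a TATA match 31 bases before the start. Among the 6 chemokine promoters, 2 held the kappa B letters, against 1.47% of 32851 promoter windows of the same length. The interferon element was in 2 of 6 (Cxcl10 and Cxcl14) against 3.44%, the AP-1 letters in 2 of 6 against 7.81% and the TATA letters in 2 of 6 against 13.6%. Ccl3 held none of the patterns, which says only that these letters are not in that window. Ccl2, Ccl4, Ccl5 and Ccl7 were not analysed here for promoter letters. A match is a description of the sequence and not a bound site.

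Ccl2, Ccl7 and Ccl12 attract monocytes through the receptor Ccr2. Ccl2 was 9.863, 10.028 and 10.068 in wildtype arrays and 9.988, 10.112, 9.940 and 9.995 in knockout arrays. The knockout array farthest from the mean over the 7 arrays lay 0.11 above it, and the lowest value was in wildtype replicate 1. Its group means were 9.99 ± 0.11 (SD, n = 3) and 10.01 ± 0.073 (SD, n = 4), a difference of 0.022 (SE 0.099, limma adjusted p = 0.949). On the linear scale the 95% confidence interval ran from 0.87 to 1.18 times wildtype.

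Ccl7 was 8.70, 8.68 and 8.92 in wildtype arrays and 8.65, 8.45, 8.74 and 8.68 in knockout arrays. Wildtype replicate 3 was the highest and knockout replicate 2 the lowest, and the other 5 arrays lay between 8.65 and 8.74. Its difference was -0.14 (SE 0.11, limma adjusted p = 0.655). Ccl12 was 8.87, 8.52 and 9.08 in wildtype arrays and 9.18, 9.08, 8.97 and 9.12 in knockout arrays. Wildtype replicate 2 stood lowest, and wildtype replicate 3 lay among the knockout arrays. The Ccl12 difference was 0.26 (SE 0.13, 95% interval -0.034 to 0.56, limma adjusted p = 0.474), and 0.11 without wildtype replicate 2. Thus Ccl12 and its neighbours in the same gene run, Ccl2 and Ccl7, had differences of different sign, none of which passed.

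Ccl3, Ccl4, Ccl5 and Ccl9 are CC chemokines that attract several kinds of leukocyte. Ccl3, also called MIP-1 alpha, was 13.01, 12.60 and 12.88 in wildtype arrays and 12.90, 12.66, 12.66 and 12.80 in knockout arrays. Wildtype arrays held both the highest and the lowest value. Its difference was -0.073 (SE 0.12, limma adjusted p = 0.852), an interval of 0.79 to 1.14 times wildtype. Ccl4, also called MIP-1 beta, was 11.872, 11.717 and 12.062 in wildtype arrays and 12.116, 12.016, 11.999 and 11.927 in knockout arrays. Wildtype replicates 1 and 2 were the lowest, and wildtype replicate 3 lay within the knockout range. Its difference was 0.13 (SE 0.11, limma adjusted p = 0.669), an interval of 0.92 to 1.30 times wildtype, and 0.047 without wildtype replicate 2.

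Ccl9, a Ccr1 ligand of rodents, was 9.03, 8.83 and 9.26 in wildtype arrays and 9.45, 9.32, 9.11 and 9.54 in knockout arrays. The overlap came from wildtype replicate 3, which exceeded knockout replicate 3. Means were 9.04 ± 0.22 (SD, n = 3) and 9.35 ± 0.19 (SD, n = 4), a difference of 0.31 on the log2 scale (SE 0.14, 95% interval 0.01 to 0.62, limma unadjusted p = 0.0439, adjusted p = 0.406). All 3 wildtype values and 2 of the 4 knockout values lay below the control level, so no fold is given. The Ccl9 difference was 0.091 when wildtype replicates 1 and 2 were both left out and 1 wildtype array remained.

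Ccl5, known as RANTES and made by T and natural killer cells as well as by activated microglia, was 7.70, 8.35 and 8.04 in wildtype arrays and 7.68, 7.85, 7.90 and 7.66 in knockout arrays. Wildtype replicates 2 and 3 exceeded all knockout arrays, while wildtype replicate 1 lay among them. These levels exceeded 74.3% to 84.9% of the control rows. The T cell marker Cd3e was 6.58 to 6.66 in wildtype samples and 6.32 to 6.78 in knockout samples, and the CD8 chain Cd8a was 7.27 to 7.54 and 7.15 to 7.23. The other CD8 chain, Cd8b1, overlapped between the genotypes, at 6.50 to 6.97 and 6.38 to 6.90. Cd3e, Cd8a and Cd8b1 were chosen after their values were seen, lay below the control level in all arrays and were not tested. Summed over the 13 measured T and natural killer cell markers, the log2 level was 11.03 to 11.19 in wildtype samples and 10.82 to 11.22 in knockout samples.

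Cxcl2, which attracts neutrophils through Cxcr2, had the largest difference among the 8 tested genes. It was 9.25, 9.49 and 9.54 in wildtype arrays and 9.81, 9.91, 9.45 and 9.91 in knockout arrays. Knockout replicate 3 lay among the wildtype arrays and the other 3 knockout arrays lay above them all. Means were 9.43 ± 0.15 (SD, n = 3) and 9.77 ± 0.22 (SD, n = 4), a 1.27-fold difference of 0.35 on the log2 scale (SE 0.14, limma unadjusted p = 0.0279, adjusted p = 0.381). In the order of unadjusted p it ranked 731 among the 10004 tested genes. Its interval ran from 1.03 to 1.56 times wildtype. Wildtype replicates 1 and 2 lay below their control levels of 9.38 and 9.55, so the fold and its interval are rough and can be understated. The difference was 0.45 without knockout replicate 3 and 0.21 without both wildtype replicate 1 and knockout replicate 4.

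Cxcl10, induced by interferons and a ligand of Cxcr3 on activated T cells, was 8.30, 8.30 and 8.50 in wildtype arrays and 8.39, 8.49, 8.69 and 8.36 in knockout arrays. Knockout replicate 3 was the highest, and the other 3 knockout arrays lay within the wildtype range. Its difference was 0.11 (SE 0.11, 95% interval -0.14 to 0.37, limma adjusted p = 0.721), 0.046 without knockout replicate 3 and 0.18 without wildtype replicate 3. Cxcl14 was 7.60, 7.56 and 7.84 in wildtype arrays and 7.73, 7.46, 7.87 and 7.45 in knockout arrays. Those values exceeded 70.7% to 80.0% of the control rows and showed no order by genotype.

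**Figure D2:**
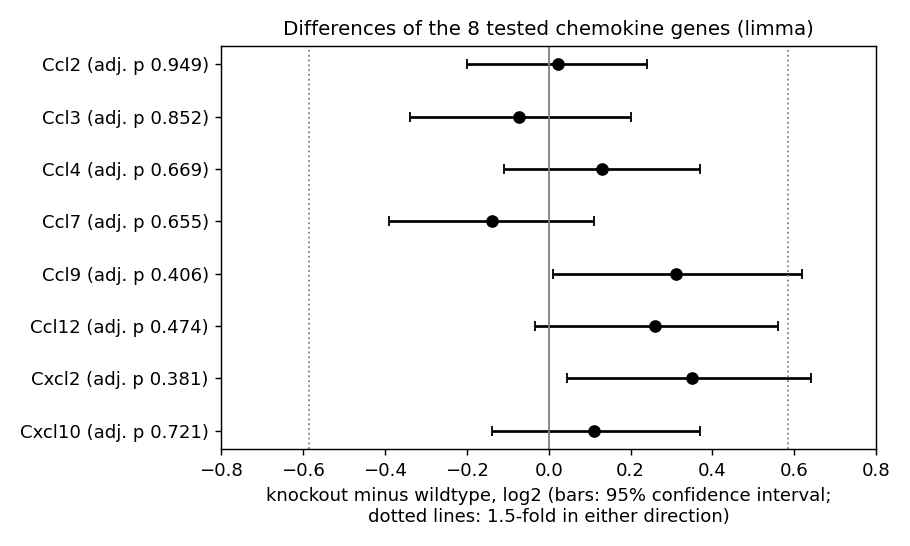
Knockout minus wildtype difference (x axis, log2) of the 8 tested chemokine genes with 95% confidence intervals from limma and the adjusted p beside each name; dotted lines mark 1.5-fold either way. The intervals of Ccl2, Ccl3 and Ccl4 lie inside the dotted lines and that of Cxcl2 reaches past the upper one, while for Ccl7, Ccl9, Ccl12 and Cxcl10, below the control level in all wildtype arrays, the lines are no limit on a fold.

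The intervals limit what the 7 arrays can show. For Ccl2, Ccl3 and Ccl4, the 3 genes above the control level in all arrays, the 95% interval lay inside 1.5-fold (0.58 on the log2 scale) in both directions, and for Cxcl2 it reached beyond 1.5-fold higher. For Ccl7, Ccl9, Ccl12 and Cxcl10 the intervals set no limit on a fold, since no wildtype array put these genes above the control level. Standard errors of the 8 were 0.099 to 0.14, near the median of 0.12 over all tested genes. These intervals are not adjusted for the number of genes tested, so with 3 and 4 arrays they are narrower than what could pass. Cxcl2 (0.045 to 0.64) and Ccl9 (0.01 to 0.62) had intervals wholly on the higher side, yet limma adjusted p was 0.381 and 0.406. An adjusted p above the threshold does not show that levels were equal.

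The chemokines did not vary as 1 block between arrays. Ccl3, Ccl4, Ccl9 and Ccl12 were each lowest in wildtype replicate 2, by 0.18, 0.24, 0.39 and 0.45 below their means over the 7 arrays, and in that same array Ccl5 was at its highest, 0.47 above its mean. With genotype means removed, Pearson correlations over the 7 arrays were 0.87 for Ccl4 with Ccl12, 0.86 for Ccl9 with Ccl12 and 0.77 for Ccl3 with Ccl12. Ccl2 and Cxcl2 had 0.77, and Ccl3 and Ccl5 had -0.94. Over the 28 pairs of tested chemokines the median was 0.26, with 21 pairs above 0 and a range of -0.49 to 0.87. These are descriptions, since all genes of a point share 1 array and 7 points are few. The pairs named are the extremes among all pairs. Ccl5 and Ccl12 lay above the control level in 0 arrays and Ccl9 in 2, so their correlations rest on dim probe sets. In wildtype replicate 3, 7 of 8 tested genes lay above their mean, against 2 of 8 in wildtype replicate 1 and 1 of 8 in wildtype replicate 2. The knockout arrays had 5, 6, 3 and 4 of 8 above.

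**Figure D3:**
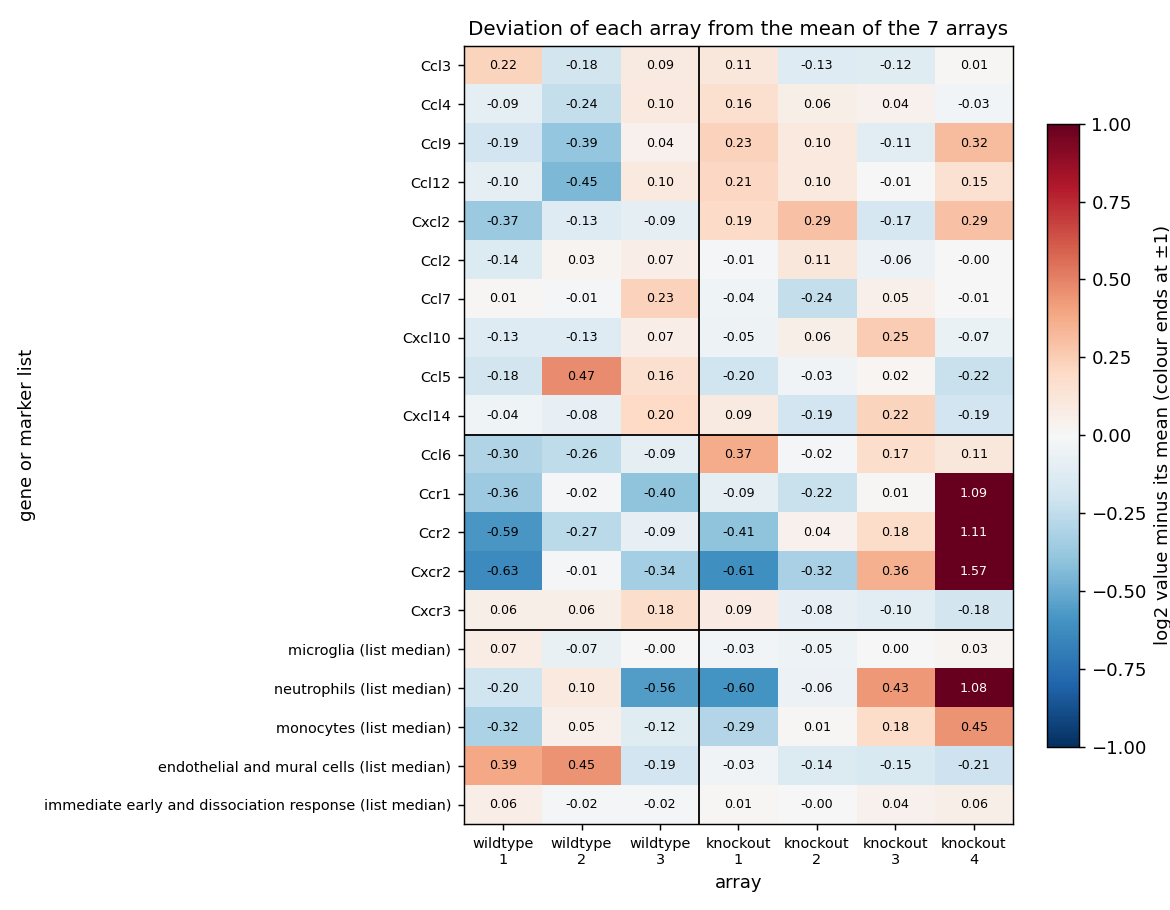
Each cell gives the log2 value of an array (x axis) minus the mean over the 7 arrays, for the 10 chemokines (top), Ccl6 and 4 receptors (middle) and the median of marker lists (bottom); colour ends at 1 unit either way. Wildtype replicate 2 is low for Ccl9 (-0.39) and Ccl12 (-0.45), and knockout replicate 4 is high for Cxcr2, Ccr1, Ccr2 and neutrophil markers (1.08). Cxcr2 is itself in the neutrophil marker list and Ccr2 in the monocyte list.

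Markers of other cells also moved between the same arrays. The median deviation of endothelial and mural markers was 0.39 and 0.45 in wildtype replicates 1 and 2, the arrays with fewest chemokines above their mean, and -0.21 to -0.032 in the others. All 15 tested endothelial and mural markers had differences below 0, with a median of -0.35, and 0 passed in limma. At an unadjusted p under 0.05, 0 were higher and 6 lower, against 8.39% and 3.54% of all tested genes. The summed log2 level of these markers ranged from 13.64 to 14.42 across wildtype and from 13.73 to 13.89 across knockout arrays. Their part in the chemokine values was not tested. Neutrophil markers had deviations of -0.20, 0.098 and -0.56 in wildtype arrays and -0.60, -0.061, 0.43 and 1.08 in knockout arrays, with summed levels of 14.37 to 14.89 and 14.33 to 15.61. Cxcl2 was 9.81, 9.91, 9.45 and 9.91 in the same knockout arrays, and a part of neutrophil RNA in its values was not tested. Monocyte markers, summed, were 11.96 to 12.54 in wildtype samples and 12.20 to 13.21 in knockout samples, again highest in knockout replicate 4. In limma 0 of 10 tested neutrophil and 0 of 8 tested monocyte markers passed. Unadjusted p was under 0.05 for 1 neutrophil and 3 monocyte markers, all higher, against 8.39% higher and 3.54% lower of all tested genes. Median differences were 0.56 for neutrophil markers (9 above 0, 1 below) and 0.26 for monocyte markers (5 above 0, 3 below). Without knockout replicate 4 the Cxcl2 difference was 0.30 and the Ccl9 difference 0.25. Immediate early and dissociation response genes, which rise when tissue is dissociated, had 18 of 22 members above the control level in all arrays, led by Dusp1, Fosb and Egr1. Their median deviation stayed between -0.02 and 0.063 in all 7 arrays, and their summed level was 16.56 to 16.64 in wildtype samples and 16.59 to 16.65 in knockout samples. In limma 0 of 22 passed. At an unadjusted p under 0.05, 3 were higher in knockout arrays (Ier2 by 0.37, Klf2 by 0.44 and Ier3 by 0.28) and 1 was lower (Hspa1a, -0.41). Over all tested genes the shares were 8.39% higher and 3.54% lower. The part of dissociation in the chemokine values was not tested.

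Receptors of the 10 chemokines were near background in most of these arrays. The receptor list had 5 measured genes, none above the control level in more than 1 of the 7 arrays. Ccr1, the receptor of Ccl3, Ccl5 and Ccl9, was 7.26, 7.60 and 7.22 in wildtype samples and 7.53, 7.40, 7.63 and 8.71 in knockout samples. Ccr2, found on monocytes and not on resting microglia, was 6.81, 7.13 and 7.31 in wildtype samples and 6.99, 7.44, 7.58 and 8.51 in knockout samples. Knockout replicate 4 was the highest for both, as it was for neutrophil and monocyte markers, and neither gene reached the filter. Ccr2 is itself in the monocyte marker list, so its match with that list is partly built in. Ccr3, an eosinophil receptor, was 6.05 to 6.46 in wildtype samples and 6.30 to 7.21 in knockout samples and was not tested.

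Cxcr2, the neutrophil receptor of Cxcl2, was 8.26, 8.88 and 8.55 in wildtype samples and 8.28, 8.57, 9.25 and 10.46 in knockout samples. Its difference of 0.58 (SE 0.42, limma adjusted p = 0.611) had an interval from -0.35 to 1.51, the spread being within knockout samples. Cxcr3, the receptor of Cxcl10, was 9.32, 9.32 and 9.44 in wildtype samples and 9.35, 9.18, 9.16 and 9.08 in knockout samples. Knockout replicates 2 to 4 lay below all wildtype arrays and knockout replicate 1 among them, with a difference of -0.16 (SE 0.10, limma adjusted p = 0.544).

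Other chemokine ligands did not pass either. All 28 listed were measured and 11 tested, of which 0 passed in limma. At an unadjusted p under 0.05, 1 was higher and 0 lower, against 8.39% and 3.54% of all tested genes. Among the 11, 2 lay above 0 and 9 below, with a median of -0.064. The gene that reached the unadjusted threshold was Ccl6, a Ccr1 ligand located between Ccl9 and Ccl3. It was 11.42, 11.46 and 11.63 in wildtype samples and 12.09, 11.70, 11.89 and 11.83 in knockout samples. The lowest knockout array was above the highest wildtype array, as in 7.10% of tested genes, with a difference of 0.37 (SE 0.12, limma unadjusted p = 0.00879, adjusted p = 0.327). Ccl25, Ccl21a and Ccl27a, ligands known from thymus, lymph node and skin, differed by -0.25, -0.16 and -0.14 and lay below the control level in all arrays.

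Among 17 other chemokine receptors 4 were tested, and 0 passed in limma or at an unadjusted p under 0.05. Cx3cr1, the fractalkine receptor that marks microglia, had means of 12.24 ± 0.12 (SD, n = 3) in wildtype samples and 12.19 ± 0.16 (SD, n = 4) in knockout samples, a difference of -0.043 (SE 0.12). Cxcr4, the receptor of Cxcl12, differed by 0.24 (SE 0.13), Ccrl2, which presents chemerin, by 0.11 (SE 0.12) and Ccr7, a homing receptor, by -0.065 (SE 0.12). None had a limma adjusted p under the threshold, the highest being 0.916 for Cx3cr1.

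Genes that carry chemokine receptor signals were tested for 14 of 20 listed, and 0 passed in limma. At an unadjusted p under 0.05, 0 were higher and 1 was lower, against 8.39% and 3.54% of all tested genes. The lower gene was Dock2, an activator of Rac in migrating leukocytes, at -0.31 (SE 0.13). Plcb2, a phospholipase C, differed by 0.25 (SE 0.12), Rgs19, a brake on G protein signals, by 0.20 (SE 0.10) and Arrb1, an arrestin, by -0.16 (SE 0.12). The median over the 14 was 0.028.

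Of 30 listed transcriptional and mRNA-level controls of chemokines 28 were tested, and 0 passed in limma. At an unadjusted p under 0.05, 3 were higher and 0 lower, against 8.39% and 3.54% of all tested genes, and the list median was 0.033. Irf7, an interferon-induced factor, was 8.43, 8.68 and 8.88 in wildtype samples and 9.53, 9.43, 8.99 and 8.74 in knockout samples, a difference of 0.51 (SE 0.19, limma adjusted p = 0.372). The inhibitor of NF-kappa-B Nfkbie differed by 0.35 (SE 0.16), the small Maf protein Maff by 0.22 (SE 0.097) and Irf5 by 0.18 (SE 0.10). All 24 listed inducing cytokines and receptors were tested, and 0 passed in limma or at an unadjusted p under 0.05, with a median of 0.033. The smallest unadjusted p there belonged to the endotoxin receptor Tlr4 at 0.28 (SE 0.14), the RNA sensor Tlr3 at -0.23 (SE 0.12) and the TNF receptors Tnfrsf1a at 0.16 (SE 0.091) and Tnfrsf1b at -0.16 (SE 0.097).

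**Figure D4:**
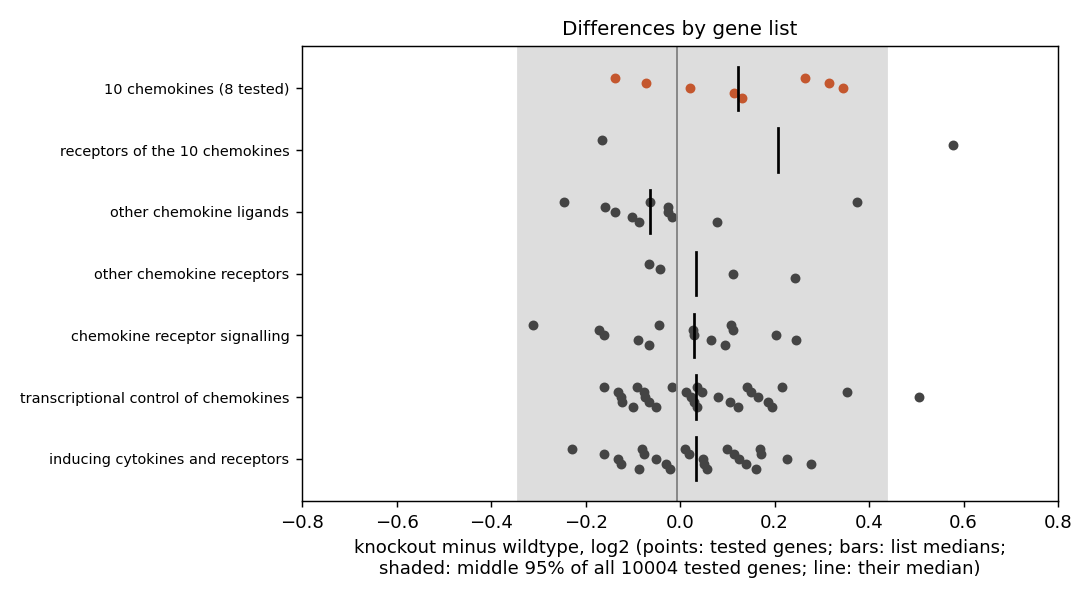
Knockout minus wildtype difference (x axis, log2) of each tested gene in the chemokine group and the related lists, with list medians as bars, the middle 95% of all 10004 tested genes shaded (-0.34 to 0.44) and their median as a line. All 8 chemokines lie inside the shaded range, and the points outside it to the right are Cxcr2 and Irf7.

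Genes with the most similar profile to the chemokines as a group were sought among the other 9996 tested genes, by Pearson correlation over the 7 arrays with the mean centred value of the 8. They were Ilk (r = 0.992), Skp1 (0.969), Acaa1a (0.965), Timp2 (0.960) and Klk8 (0.958). A total of 54 genes exceeded 0.9, which with 7 arrays is a description only. Ranked by Spearman correlation, 1 of these 5 genes stayed among the top 5. Their own differences between genotypes were 0.13 to 0.26, and none passed in limma.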

How the data were processed

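Expression was measured with 1 array per sample. The deposited values are log2 expression per probe set, computed by the authors by RMA (Affymetrix Expression Console 1.1, according to the submitters' processing notes). Build and annotation are not given in the sources used here. A probe annotation named 19572 of 28846 rows with 1 gene each, and symbols were updated by Entrez identifier through a RefSeq table of GRCm38.p6. Each gene kept its probe set of highest mean. Genotypes came from the labels. Since no label says that arrays are separate animals, p-values reflect only the spread among these samples, possibly technical. The genotypes were compared with limma 3.58.1 (R 4.3.3, lmFit, eBayes, Benjamini-Hochberg over 10004 genes, two-sided), checked on simulated data. The simulated differences were larger than that of any tested chemokine, so the check does not cover differences of their size. For arrays, their number limits the precision.

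The chemokines and lists were chosen with earlier results of these data known. Names follow a rule: all 10 chemokines, B2m, their receptors, up to 4 genes per related list by smallest unadjusted p, and up to 3 markers per cell type by height above control rows. Cd3e, Cd8a, Cd8b1 and 4 dissociation response genes (Ier2, Ier3, Klf2 and Hspa1a) were named outside it, after their values were seen. Alternatives covered the filter, the prior, array weights, normalization, probe set choice and left-out arrays. The planned comparison of chemokine proteins was not run.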

Additional observations from a re-analysis of the deposited data

Results flagged for a closer look

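In a group of 4 arrays, a value can stand apart from the other 3 by more than Dixon's 95% critical value, which chance reaches in about 1 of 20 groups. Of 36 genes examined in the 4 knockout arrays, 3 had such an array, and none of the 10 chemokines was among them. Ccrl2 was 10.26 in knockout replicate 4 and 9.89 to 9.93 in the other knockout arrays. Rgs19 was 9.82 in knockout replicate 2 and 9.62 to 9.65 in the others. Irf5 was 9.81 in knockout replicate 4 and 9.85 to 9.86 in the others.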

How the results depend on the processing

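In each of 17 alternatives 0 tested chemokines passed, as did 0 genes of each related list. Changes of filter, prior or probe set choice cannot move a difference, since each chemokine has 1 probe set, so they add no separate support. Cxcl2 stayed above 0 in all 17, with a difference of 0.21 to 0.45, a limma adjusted p of 0.281 or more and an unadjusted p under 0.05 in 10. Among fits with arrays left out, that held only without wildtype replicate 2 (0.0444), wildtype replicate 3 (0.0302) or knockout replicate 3 (0.00415). Ccl9 stayed above 0 in all 17 (0.091 to 0.43, limma adjusted p 0.232 or more, unadjusted p under 0.05 in 8). Ccl12 did so too (0.0087 to 0.39, limma adjusted p 0.236 or more, unadjusted p under 0.05 in 1). With arrays left out, unadjusted p was under 0.05 for Ccl9 only without wildtype replicate 3 or knockout replicate 3. For Ccl12 it was so only without wildtype replicate 3. Ccl7, which a stricter filter left untested together with Cxcl10, stayed below 0 in 16 (-0.29 to -0.059). Ccl2 changed sign with array weights (-0.012), with repeated quantile normalization (-0.023), without wildtype replicate 1 and knockout replicate 4 together (-0.035) and without wildtype replicates 1 and 2 (-0.059), and without 1 array at a time it ran from -0.039 to 0.063. Ccl3 ran from -0.19 to 0.016 without 1 array at a time and was 0.00056 without wildtype replicate 1 and knockout replicate 4 together. Without wildtype replicates 1 and 2, which left 1 wildtype array assumed to vary like the others, Ccl4 was -0.048, Cxcl10 -0.019 and the median over the chemokines -0.033. The causes were not tested. With the control level drawn at 90%, 3 chemokines in place of 5 lay below it in all arrays. Without wildtype replicate 3, 7 genes were called higher and 19 lower over all genes, against 2 and 3 with all arrays. No paired analysis was possible because replicate numbers only name arrays in accession order.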
